A study of Mus musculus with 9 samples.

Results

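Immediate early genes are transcribed within minutes of a stimulus, from signalling parts that the cell already holds. Calcium entry and growth factors act through kinase cascades on factors such as Srf and Creb, which sit on the promoters of these genes, and the messages are short-lived. In neurons they are used as marks of recent firing, and in dissected tissue they also respond to handling and to loss of oxygen. The 10 genes followed here fall into 4 roles. Fos, Fosb and Fosl2 encode Fos proteins, and Jun and Junb encode Jun proteins, which pair through leucine zippers to form the factor AP-1. Egr1 and Egr3 are zinc finger factors, and Nr4a1 is an orphan nuclear receptor. Arc is an effector of synapses that takes part in the removal of AMPA receptors, and Ier2 is a small nuclear protein of the growth factor response.

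The genes were taken by name, from all probe sets (groups of short oligonucleotides on the array that measure 1 transcript) whose annotation gave only that gene. All 10 were present, with 13 probe sets, among 18193 genes that had such a probe set. The samples were whole olfactory bulbs of CD1 mice, an outbred strain, with no genotype or treatment beyond age, collected daily over embryonic days E11 to E18 and then on the day of birth, P0. A single array stands for an age, with RNA from the bulbs of 1 animal. With no replicates, errors given for a trend come from the scatter of the 9 arrays about the fitted line. In the linear models over all genes, the scatter of each gene was moderated by that of the other genes. The p-values rest on these arrays and not on replicates of an age. Embryos were taken from the pregnant dam and the newborn was collected at birth, so that the manner of collection and the age P0 cannot be told apart. The interval between removal and extraction is not given in the sources used here.

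Values are log2 expression levels, on which 1 unit is a 2-fold difference. A gene was tested if a probe set read log2 5 or more on at least 2 arrays, and 10864 genes passed. Of the 10 immediate early genes, 7 passed: Fos, Fosl2, Jun, Egr1, Egr3, Nr4a1 and Ier2. Fosb, Junb and Arc read under 5 on all 9 arrays, as did 45.0% of all probe sets with a single gene name. Fos, Fosl2 and Egr3 were under 5 at the early ages and passed through the later arrays, so that the count of genes that passed favours genes that differ with age.

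The median of all probe sets lay between 4.08 and 4.23, and the gap between the 3' and 5' actin probe sets, a sign of RNA integrity, between 1.48 at E13 and 1.90 at E18. The same gap for Gapdh lay between 1.55 at E11 and 2.12 at E14, and was 2.04 at E18. The part of these gaps in any result was not tested. Of 5 markers of bulb output neurons, Eomes, Tbr1 and Reln read 10.29 or more on all arrays. Cdhr1 read 6.39 at E11 and 11.62 at E13, and Tbx21 was under 5 at E11, E12 and E14 and read 9.28 at P0. Xist was high on 4 arrays (E11, E12, E15 and P0) and Y-linked genes on the other 5, with no array high in both.

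Promoters of the Fos family and of Nr4a1 are shown because these genes are known for short control elements close to the start site. Promoters were taken from RefSeq tables of the GRCm38.p6 build, and those of a single chromosome were left out before the search. The promoters kept covered 6 of the 10 genes, from 250 bases before the annotated start to 50 after it: Fos, Fosb, Fosl2, Jun, Junb and Nr4a1. The other members are thus not shown to lack a RefSeq promoter. Both strands were searched for the CArG box, which binds Srf, the cyclic AMP response element TGACGTCA, the AP-1 site TGANTCA, the Egr site GCGNGGGCG and the TATA box TATAAA. Matches are in capitals in the 4 promoters below, printed 5′ to 3′ on the strand of the gene.

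Fos, chr12:85473640-85473939, plus strand: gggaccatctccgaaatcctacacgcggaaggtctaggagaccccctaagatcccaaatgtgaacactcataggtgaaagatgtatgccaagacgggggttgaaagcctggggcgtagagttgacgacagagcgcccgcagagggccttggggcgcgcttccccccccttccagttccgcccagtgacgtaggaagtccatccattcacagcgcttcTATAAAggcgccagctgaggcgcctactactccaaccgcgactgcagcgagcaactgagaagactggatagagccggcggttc

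Fosl2, chr5:32136222-32136521, plus strand: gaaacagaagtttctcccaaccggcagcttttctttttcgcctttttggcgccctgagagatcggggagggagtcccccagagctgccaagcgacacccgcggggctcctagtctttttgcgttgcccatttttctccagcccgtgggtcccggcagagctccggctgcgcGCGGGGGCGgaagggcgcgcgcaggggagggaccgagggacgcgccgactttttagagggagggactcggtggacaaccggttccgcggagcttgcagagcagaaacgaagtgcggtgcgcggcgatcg

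Nr4a1, chr15:101266596-101266895, plus strand: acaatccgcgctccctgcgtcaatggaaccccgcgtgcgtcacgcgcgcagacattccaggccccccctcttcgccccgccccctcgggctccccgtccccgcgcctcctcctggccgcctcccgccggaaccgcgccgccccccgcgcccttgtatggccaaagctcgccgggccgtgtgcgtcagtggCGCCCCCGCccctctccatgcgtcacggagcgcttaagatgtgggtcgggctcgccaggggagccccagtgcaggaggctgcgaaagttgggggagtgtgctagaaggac

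Fosb, chr7:19309996-19310295, minus strand: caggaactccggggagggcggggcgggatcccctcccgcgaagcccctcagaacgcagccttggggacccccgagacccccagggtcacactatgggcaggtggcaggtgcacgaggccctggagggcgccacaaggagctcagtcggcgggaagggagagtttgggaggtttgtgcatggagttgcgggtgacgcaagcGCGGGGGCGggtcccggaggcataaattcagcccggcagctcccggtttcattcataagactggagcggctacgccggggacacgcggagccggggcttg

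The Egr site was matched in Fosl2 (-79 to -71 from the start), in Nr4a1 (-60 to -52, on the opposite strand) and in Fosb (-50 to -42), against 5.55% of the 32851 promoters searched. In all 3 the match overlapped the Sp1 box GGGCGG, which 35.7% of promoters held. These promoters were rich in G and C, with 64.7% in Fosl2, 72.3% in Nr4a1 and 68.3% in Fosb against a median of 52.7%. The TATA box was matched in Fos (-33 to -28) and in Junb (1 to 6), against 13.6% of promoters. The CArG box (1.63% of promoters), TGACGTCA (1.79%) and TGANTCA (7.81%) had no match in the 6 windows. Only exact letters inside these short windows were searched, so that elements farther out or with other letters were missed. The lack of a match does not show that these genes lack such elements. Fosl2 and Nr4a1, whose messages rose, and Fosb, whose probe set stayed under 5, thus held the same Egr letters. A match is a run of letters and not a bound site.

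Fos, Fosl2, Egr1, Egr3 and Nr4a1 rose from E11 to birth, Ier2 fell, and Jun did not pass. Slopes are from a linear model in limma over all 10864 genes, with a Benjamini-Hochberg adjusted p of 0.05 as threshold. Over all genes, 25.2% rose and 21.9% fell, and 5 of the 7 tested immediate early genes rose and 1 fell. With each array centred on its median, the balance over all genes turned, with 2393 that rose and 2980 that fell against 2743 and 2382, while the members kept their calls. In whole bulb, more cells that hold a message and more message per cell cannot be told apart.

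**Figure D1:**
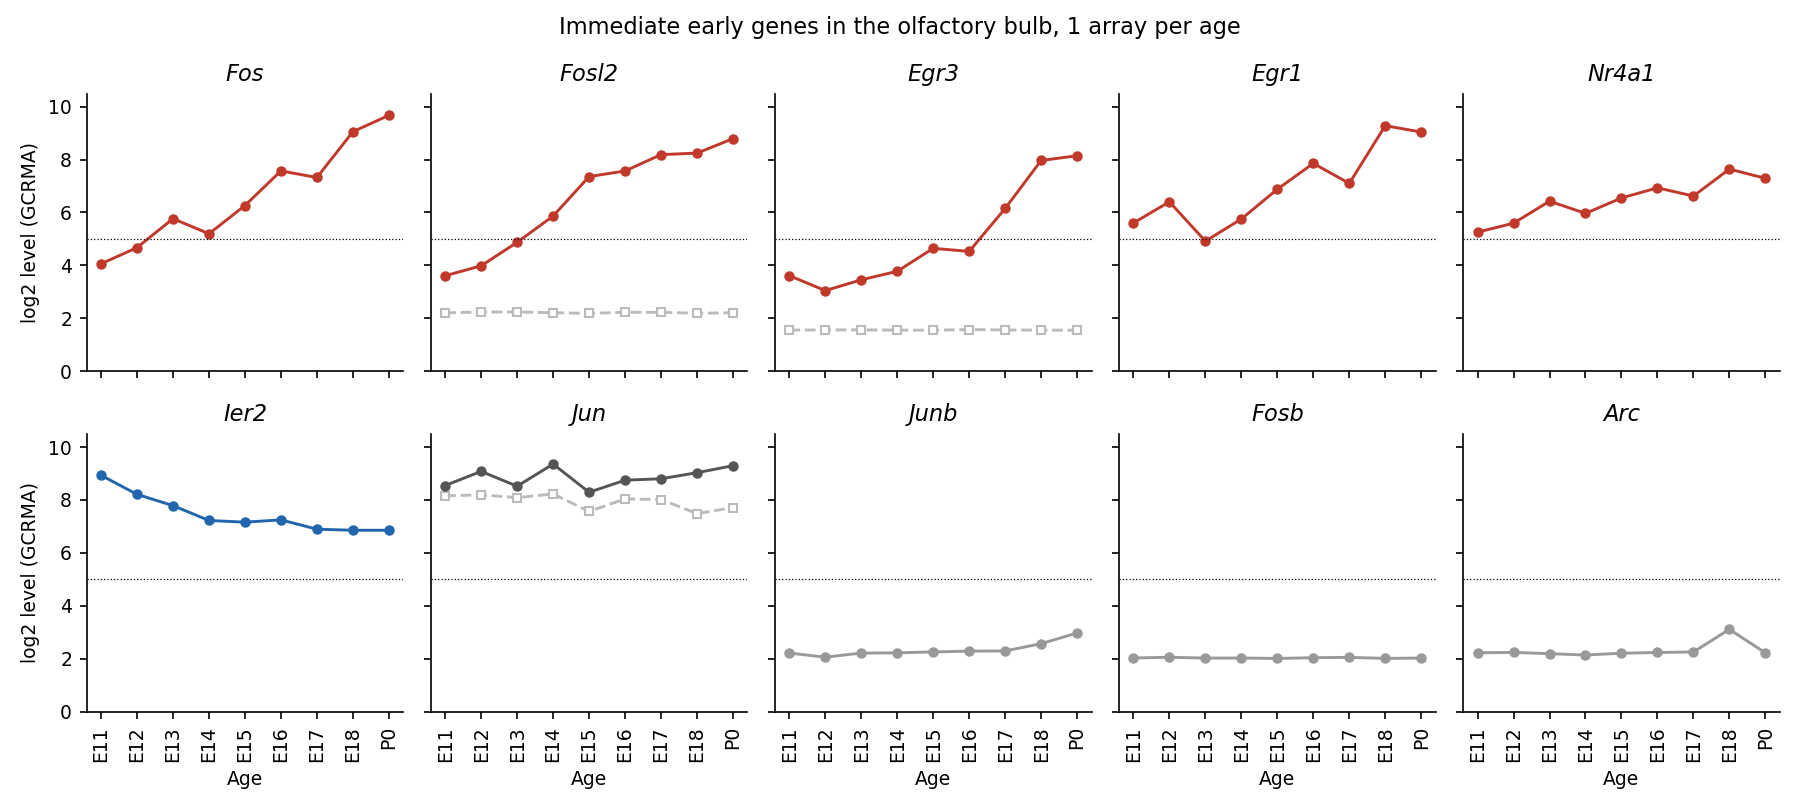
Log2 level of each immediate early gene at each age (1 array per point, no error bars because no age was replicated). Filled circles are the probe set that stands for the gene, open squares a further probe set, and the dotted line marks the filter level of 5; red genes rose, blue fell, dark grey did not pass and light grey stayed under 5. Fos climbs from 4.06 to 9.68 while Fosb stays between 2.01 and 2.05.

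Fos, the founding member of its family, read 4.06 at E11, 4.67 at E12, 5.77 at E13, 5.20 at E14, 6.26 at E15, 7.57 at E16, 7.32 at E17, 9.05 at E18 and 9.68 at P0. Its level thus stepped up with small setbacks at E14 and E17, and the 2 latest arrays stood above all others. The slope was 0.69 ± 0.057 log2 units per day (SE, n = 9 arrays, adjusted p = 1.79e-05 in limma). At P0 it was at least 25.6-fold above E11, counting values under 5 as 5.

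Fosl2, which encodes Fra-2, a longer-lived partner of Jun proteins, read 3.61, 3.98, 4.87, 5.86, 7.36, 7.57, 8.19, 8.24 and 8.79 from E11 to P0. It was higher on each array than on the one before. The slope was 0.70 ± 0.055 (adjusted p = 1.21e-05 in limma), and the level at P0 was at least 13.8-fold above E11. A second Fosl2 probe set stayed between 2.18 and 2.24 on all arrays, so that the rise rests on 1 of 2 probe sets.

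Fosb, whose short splice form accumulates in neurons after repeated stimulation, did not follow. Its only probe set read between 2.01 and 2.05 on the 9 arrays, a range of 0.046 log2 units. The lowest value over all probe sets and arrays was 1.16. Such low readings give no order of the ages, and do not show that the message was absent.

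Jun read 8.55, 9.08, 8.52, 9.36, 8.29, 8.75, 8.80, 9.03 and 9.30 from E11 to P0 on the probe set with the higher mean. The ages overlapped, with the highest value at E14 and the lowest on the next array. The slope was 0.047 ± 0.042 (95% interval -0.047 to 0.14, adjusted p = 0.389 in limma). The second Jun probe set read between 7.49 at E18 and 8.23 at E14, with a slope of -0.071 ± 0.029 (adjusted p = 0.0730 in the limma fit over all probe sets that passed). The 2 probe sets of Jun thus disagreed in direction, and neither passed.

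Junb, a Jun protein that restrains Jun in many settings, read 2.21 at E11, 2.06 at E12, between 2.21 and 2.29 from E13 to E17, 2.57 at E18 and 2.97 at P0. The 2 latest arrays were highest, but every value lay under 5. Without the filter its slope was 0.080 ± 0.020 (adjusted p = 0.0146 in limma), on readings that all lie under the filter level.

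Egr1, the zinc finger factor also known as Zif268 and Krox-24, read 5.60, 6.40, 4.92, 5.75, 6.88, 7.86, 7.10, 9.28 and 9.04 from E11 to P0. The course was uneven: E13 was the lowest array, E17 lay under E16, and E18 was the highest. The slope was 0.48 ± 0.087 (adjusted p = 0.00145 in limma), and P0 was 10.85-fold above E11. From E13 to P0 alone the slope was 0.70 (adjusted p = 0.00101).

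Egr3, a target and relative of Egr1, read 3.61, 3.05, 3.45, 3.78, 4.64, 4.53, 6.15, 7.97 and 8.15 from E11 to P0. It was under 5 up to E16 and above 6 on the 3 latest arrays, through which alone it passed the filter. The slope was 0.65 ± 0.091 (adjusted p = 0.000323 in limma), and 0.40 (adjusted p = 0.00469) with values under 5 set to 5. P0 was at least 8.85-fold above E11. A second Egr3 probe set stayed between 1.55 and 1.57 on all arrays.

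Nr4a1, known as Nur77 and NGFI-B, read 5.26, 5.59, 6.43, 5.97, 6.55, 6.93, 6.62, 7.64 and 7.29 from E11 to P0. Like Fos it was lower at E14 and at E17 than on the array before, and its highest value was at E18. Most genes were lower on these 2 steps: 39.0% of all genes were higher from E13 to E14 and 36.1% from E16 to E17. The slope was 0.26 ± 0.040 (adjusted p = 0.000583 in limma), and P0 was 4.10-fold above E11.

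Arc read between 2.14 and 2.25 on 8 arrays and 3.11 at E18. All values lay under 5, and P0, at 2.22, was back among the earlier ages. Without the filter its slope was 0.047 ± 0.033 (adjusted p = 0.368 in limma).

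Ier2 ran the other way. It read 8.93, 8.21, 7.79, 7.23, 7.16, 7.25, 6.90, 6.86 and 6.86 from E11 to P0, so that most of the fall lay before E14 and the latest 3 arrays lay between 6.86 and 6.90. The slope was -0.24 ± 0.040 (adjusted p = 0.000950 in limma), and P0 was 4.23-fold under E11. From E13 to P0 alone the slope was -0.14 (adjusted p = 0.0291).

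**Figure D2:**
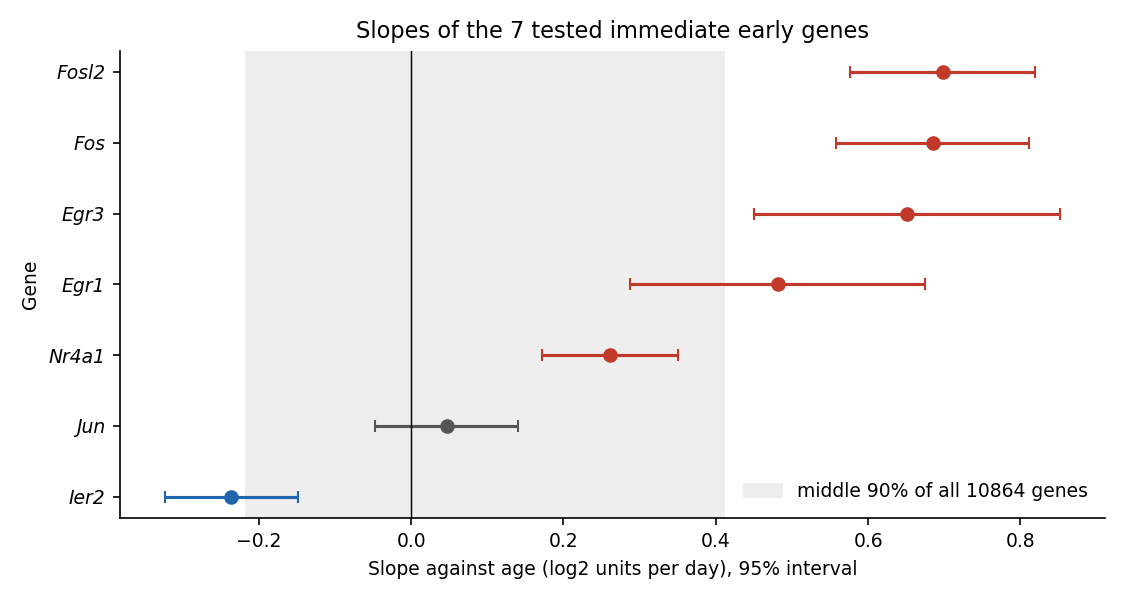
Slope against age of the 7 tested immediate early genes, in log2 units per day, with the 95% interval from the moderated standard error (bars). The grey band holds the middle 90% of the slopes of all 10864 genes as measured, from -0.22 to 0.41. Fosl2, Fos, Egr3 and Egr1 lie to its right, Nr4a1 and Jun inside it, and Ier2 just to its left. With values under 5 set to 5 the slope of Egr3 is 0.40, which cannot be placed against this band, because the band was not taken anew with such values set to 5.

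The slopes of Egr3, Fosl2 and Fos rest in part on readings under 5. With such values set to 5, the slope was 0.61 for Fos, 0.55 for Fosl2, 0.48 for Egr1, 0.40 for Egr3 and 0.26 for Nr4a1, so that Egr3 came after Egr1. The slopes as measured of the 7 genes were compared with each other over the 21 pairs, by an exact permutation test (two-sided) of the difference between 2 genes within each array against age. After Benjamini-Hochberg adjustment over the pairs, 14 passed. Fos and Fosl2 differed by -0.013 ± 0.11 log2 units per day (exact permutation test, adjusted p = 0.910), and Fos and Egr3 by 0.034 ± 0.10 (adjusted p = 0.791, exact permutation test). Fos was steeper than Nr4a1 by 0.42 ± 0.048 (exact permutation test, adjusted p = 0.000116), and Fosl2 than Nr4a1 by 0.44 ± 0.076 (adjusted p = 0.00251). The gap between Fos and Egr1, 0.20 ± 0.094, did not pass (exact permutation test, adjusted p = 0.0967), nor did that between Egr1 and Nr4a1 (0.22 ± 0.11, adjusted p = 0.0967). Jun had a lower slope than each of the 5 rising genes, by the least against Nr4a1 (-0.21 ± 0.074, exact permutation test, adjusted p = 0.0436). Among Fosl2, Fos, Egr3 and Egr1 no pair passed, so that their order is not settled by these arrays.

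Curvature was tested by the quadratic term of age in limma, which passed for 6.86% of all genes. It passed for Egr3 (0.10 ± 0.024 log2 units per day squared, adjusted p = 0.0336) and for Ier2 (0.044 ± 0.011, adjusted p = 0.0430). For Egr3 this is the late climb and for Ier2 the levelling off described above. Both calls were marginal. That of Egr3 ended in 9 of 19 alternatives, among them without the E11, E14, E15, E16 or E17 array (adjusted p up to 0.513 over all alternatives). That of Ier2 ended in 12 of 20, among them without any single array except E16 (adjusted p up to 0.718 over all alternatives).

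Between consecutive arrays, the step from E17 to E18 held the most members that were at least 2-fold higher. Egr1 rose from 7.10 to 9.28, a difference of 2.18 log2 units that ranked 9 among 10864 genes. Egr3 was higher by 1.82 (rank 20), Fos by 1.73 (rank 24) and Nr4a1 by 1.02 (rank 150). Fosl2 (0.055), Jun (0.23) and Ier2 (-0.040) moved by less. At least a 2-fold difference upward was thus seen in 4 of the 7 genes, against 1.44% of all genes. Markers of other cells moved both ways on this step. Of 5 markers of bulb output neurons 3 were higher, Tbx21 alone by 2-fold or more (7.75 to 9.34). Eomes went from 12.20 down to 11.94 and Tbr1 from 11.16 down to 10.51, and the list median from 12.20 to 11.94. Of 4 markers of the oligodendrocyte lineage 3 were higher, Olig1 alone by 2-fold or more (8.46 to 9.55). Olig2 went from 5.54 down to 5.05. The part of these cells in the step was not tested. With 1 array at each age this step has no test, and a difference between ages and a difference between animals cannot be told apart.

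**Figure D3:**
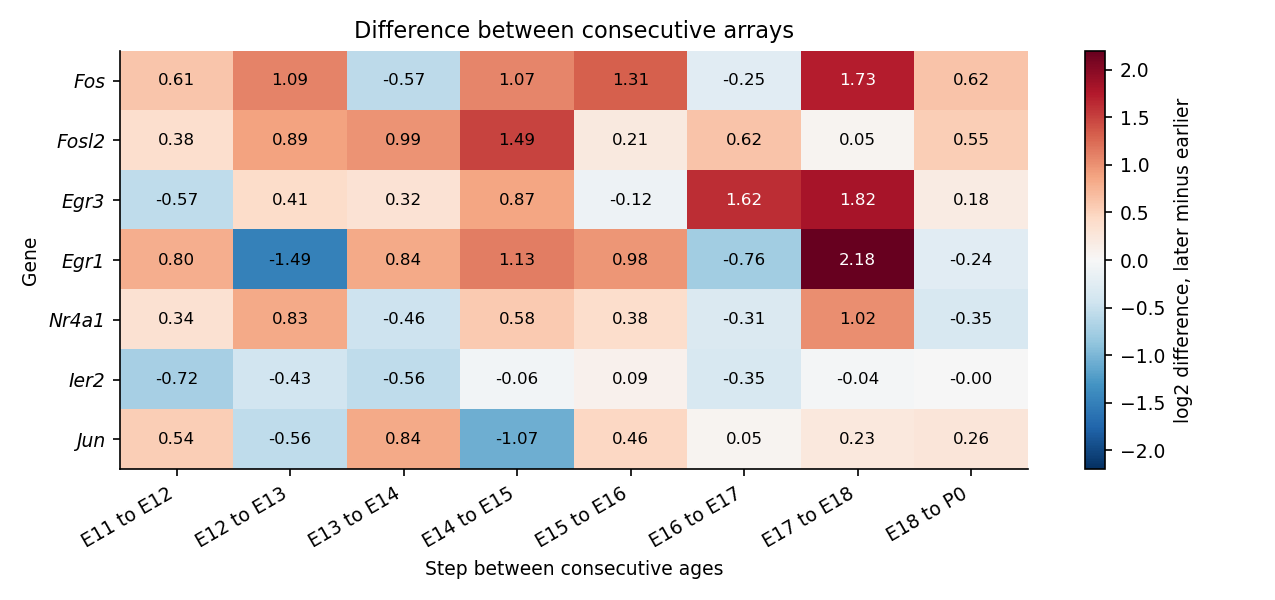
Difference in log2 level between consecutive arrays (later minus earlier) for the 7 tested genes, printed in each cell and coloured red where higher and blue where lower. The column from E17 to E18 holds 2.18 for Egr1, 1.82 for Egr3, 1.73 for Fos and 1.02 for Nr4a1, beside 0.05 for Fosl2.

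A partly different set of members was higher at an earlier step. From E14 to E15, Fosl2 was higher by 1.49, Egr1 by 1.13 and Fos by 1.07, 3 of the 7 genes against 5.60% of all genes. On the same step Jun was lower by 1.07. Under quantile normalization, 2 members were higher by 2-fold or more on this step. From E12 to E13 Fos went from 4.67 to 5.77 while Egr1 went from 6.40 to 4.92. With values under 5 set to 5, Egr1 was still lower by 2-fold or more on this step, and Fos was no longer higher by 2-fold.

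Deviations of each gene from its own fitted line were also taken for each array. At E18, 6 of the 7 genes lay above their lines, against 41.9% of all genes. Egr3 was above by 0.98, Egr1 by 0.86 and both Nr4a1 and Fos by 0.38. Ier2 (0.099) and Jun (0.038) were only just above, and Fosl2 was below, at -0.35. At E17, 1 of the 7, Fosl2, lay above, against 45.1% of all genes, with Egr1 at -0.84, Fos at -0.67 and Nr4a1 at -0.37. Fosl2 lay on the other side of its line from Fos on 8 of the 9 arrays, the exception being E16. Both arrays were low in Xist, and the median deviation of all genes was -0.022 at E17 and -0.036 at E18.

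**Figure D4:**
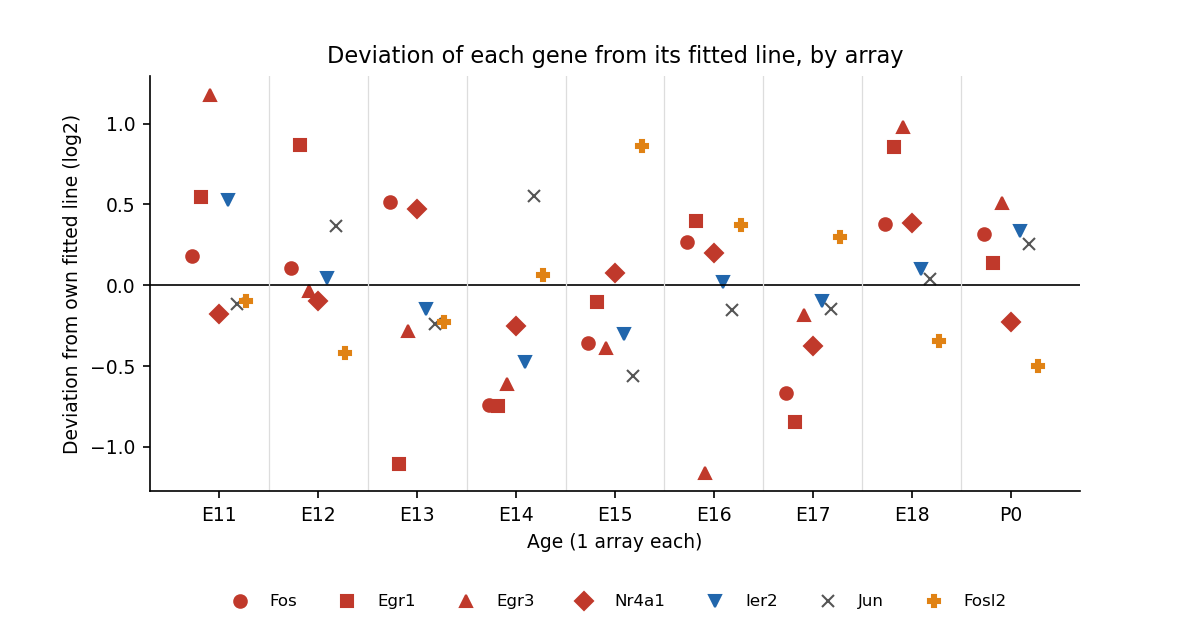
Deviation of each gene's log2 level from its own fitted line against age, by array (1 point per gene and array, shifted sideways for legibility). At E17 all genes but Fosl2 lie below 0, and at E18 all but Fosl2 lie above it.

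Levels of the 7 genes were correlated over the 9 arrays. Of the 21 pairs, 14 passed (Pearson's r, exact permutation test, Benjamini-Hochberg over the pairs), 10 positive among the rising genes and 4 negative between them and Ier2. The closest pair was Fos and Nr4a1, with r = 0.957 (exact permutation p = 8.54e-05, adjusted p = 0.000897) and Spearman's rho = 0.983 (exact permutation p = 4.96e-05, adjusted p = 0.00104). Without E18 and P0, the 2 arrays farthest from the median of Fos, r was 0.957. Fos and Egr1 had r = 0.898 (exact permutation p = 0.00153, adjusted p = 0.00537) and rho = 0.867 (exact permutation p = 0.00451, adjusted p = 0.00861), and r = 0.719 without those arrays. Both genes of a pair share the sample, the array and the trend with age. In the deviations from the lines, given as a description, r was 0.66 for Fos and Nr4a1, 0.45 for Fos and Egr1 and -0.56 for Fos and Fosl2. For the 4 negative pairs with Ier2, r in the deviations was 0.61 with Fos and 0.72 with Egr3, but -0.50 with Fosl2 and -0.095 with Nr4a1. The negative sign in the levels of Fos and Egr3 with Ier2 was thus not seen in their deviations.

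Among all genes, those whose course was most like that of Fos were Smpdl3a, a lysosomal phosphodiesterase (r = 0.982 over 9 arrays), the lysosomal membrane protein Lamp1 (0.981), Arhgef6 (0.980), the polarity protein Pard6a (0.977) and Fndc1 (0.974). Nr4a1 ranked 50 of 10863 by this measure, Egr3 231, Fosl2 327 and Egr1 480. For Egr1 the nearest were Kcne4, a potassium channel subunit (0.975), Tpbgl (0.972), the extended synaptotagmin Esyt3 (0.967), Ctbs, a lysosomal chitobiase (0.966), and the phospholipase Plaat3 (0.963). Fos ranked 144 and Egr3 184 by likeness to Egr1. Kcne4 read under 5 up to E17, with 5.04 at E18 and 5.05 at P0, through which alone it passed the filter. Fndc1, Tpbgl and Esyt3 read under 5 up to E14. The neighbours named were picked as the highest of 10863 values, so that no test is given, and Arc, which was not tested, has no such neighbours here.

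Other genes of the early response went both ways. From 51 names 37 were tested, of which 14 rose and 4 fell, and 19 stayed short of the threshold (25.2% and 21.9% of all genes rose and fell), with a median change over the course of 0.73 log2 units against 0.016 for all genes. Cebpd, a basic leucine zipper factor (slope 0.48 ± 0.068, adjusted p = 0.000381 in limma), Ccn2, a matrix growth factor and target of Srf (0.43 ± 0.14, adjusted p = 0.0271), the zinc finger factor Klf4 (0.34 ± 0.065) and Nr4a3, a relative of Nr4a1 (0.34 ± 0.087), had the largest rising slopes. Nr4a2, the other relative, had a slope of -0.0061 (adjusted p = 0.914). The genes that fell were Gadd45g, a growth arrest gene (-0.34 ± 0.041), the antiproliferative factor Btg2 (-0.26 ± 0.069), the kinase Plk3 (-0.22 ± 0.037) and the phosphatase Dusp1 (-0.085 ± 0.025). From E17 to E18, Ccn2 alone of the 37 was higher by 2-fold or more (7.42 and 9.35). Egr2, Egr4, Npas4, Atf3 and Fosl1 were among the 14 not tested.

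Effector genes of synapses and secretion, downstream of activity, were also followed. From 20 names 14 were tested, of which 10 rose and 0 fell, and 4 stayed short of the threshold (25.2% and 21.9% of all genes rose and fell), with a median change of 1.86 log2 units. The steepest were the granin Scg2 (0.77 ± 0.14, adjusted p = 0.00128 in limma), the opioid precursor Penk (0.76 ± 0.073), Rgs4, a regulator of G proteins (0.65 ± 0.059), and the neuropeptide precursor Vgf (0.38 ± 0.055). Markers of neurons in general rose on the same arrays, 8 of 9 tested, with a list median of 8.36 at E11 and 11.33 at P0. Their part in these rises, and in those of Fos, Fosl2, Egr1, Egr3 and Nr4a1, was not tested.

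Upstream regulators and partners were measured too. Of 23 tested kinases, coactivators and factors that act on these promoters, 7 rose and 3 fell, which leaves 13 short of the threshold. The shares of all genes were 25.2% and 21.9%, and these counts are near them. Camk4, a calcium-dependent kinase that acts on Creb (0.65 ± 0.10, adjusted p = 0.000766 in limma), Mef2c (0.54 ± 0.079) and Mef2a (0.28 ± 0.026) had the largest rising slopes, and the kinases Rps6ka3 (-0.11 ± 0.035) and Mapk14 (-0.061 ± 0.021) and the coactivator Ep300 (-0.071 ± 0.026) fell. Srf (0.015, adjusted p = 0.640) and Creb1 (-0.067, adjusted p = 0.114) did not pass. Of 9 tested AP-1 partners and Egr corepressors 4 rose and 0 fell: Jdp2, a repressor of AP-1 (0.52 ± 0.070), the large Maf factor Maf (0.40 ± 0.054), and the Egr corepressors Nab1 (0.18 ± 0.030) and Nab2 (0.15 ± 0.054, adjusted p = 0.0400). Nab2 read between 4.02 and 4.22 up to E17, 5.06 at E18 and 5.71 at P0.

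**Figure D5:**
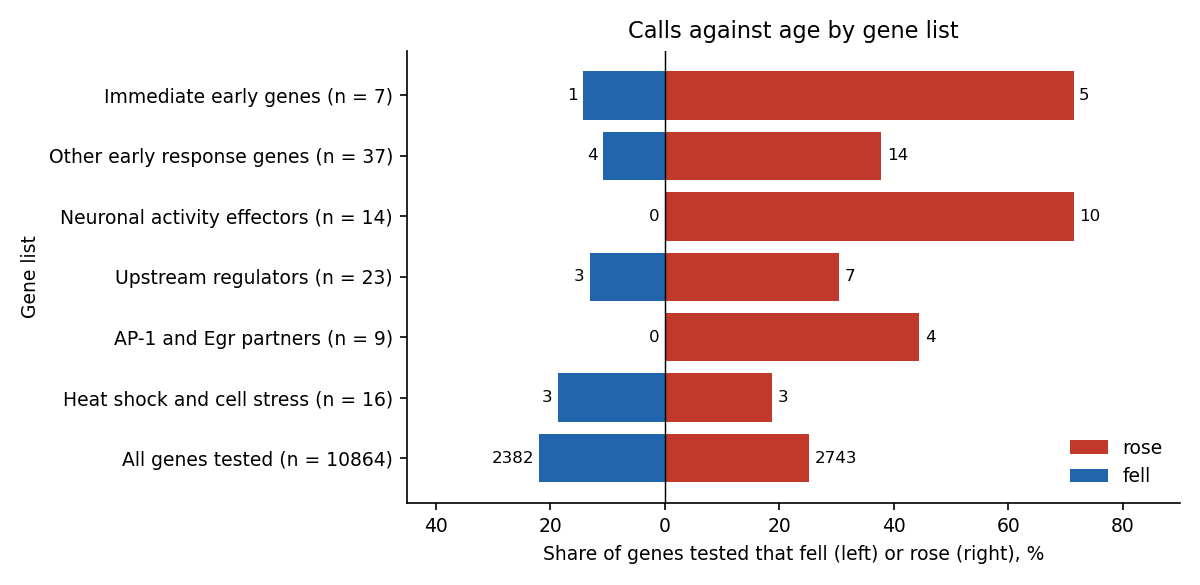
Share of the tested genes in each list that rose (red, to the right) or fell (blue, to the left) with age at an adjusted p under 0.05, with counts at the bar ends and the number tested beside each name. Immediate early genes show 5 and 1 of 7, heat shock and stress genes 3 and 3 of 16, and all genes 2743 and 2382 of 10864.

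Genes of heat shock and cell stress, which handling can raise as well, went both ways. Among 16 tested genes 3 rose and 3 fell, against 25.2% and 21.9% of all genes, 10 stayed short of the threshold, and the median change was -0.00087 log2 units. Hspa1b, an inducible chaperone with a near-identical copy in Hspa1a, so that its probe set may read either (0.38 ± 0.088, adjusted p = 0.00534 in limma), the cell cycle inhibitor Cdkn1a (0.32 ± 0.053) and Txnip (0.14 ± 0.034) rose. Hspd1 (-0.086 ± 0.017), Dnaja1 (-0.078 ± 0.015) and Dnajb1 (-0.050 ± 0.016), all chaperones, fell. The list median was 11.09 at E17 and 11.03 at E18, and 5 of the 16 were higher at E18, against 49.7% of all genes. The part of handling in the levels of the immediate early genes was not tested.

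Immediate early genes are also expressed in vessels, meninges and immune cells, whose markers were followed on the same arrays, on which 25.2% of all genes rose and 21.9% fell. Of 10 genes of meninges and mesenchyme 9 rose (list median 6.95 at E11 and 9.99 at P0), of 8 tested in microglia and macrophages 7 rose (5.15 and 7.20), and of 5 tested in pericytes all 5 rose (5.12 and 7.80). Of 6 tested endothelial genes 2 rose, with a list median of 7.59 at E11 and 7.64 at P0, and Pecam1, Cdh5, Tie1 and Emcn did not pass the filter. From E17 to E18 the medians went from 9.52 to 9.56 for meninges, from 7.20 to 7.49 for microglia, from 7.83 to 7.88 for endothelium and from 8.82 down to 8.62 for pericytes. Markers of glia and interneurons rose too: 5 of 5 tested in astrocytes (list median 7.89 at E11 and 10.51 at P0), 3 of 4 in the oligodendrocyte lineage (5.89 and 8.91), 3 of 3 in ensheathing glia (3.62 and 9.94) and 6 of 6 in bulb interneurons (9.40 and 10.49). From E17 to E18 their medians went from 10.18 to 10.49, from 8.11 to 8.71, from 9.58 to 10.11 and from 10.01 to 10.17, in the same order. For Ier2, which fell, markers of cycling progenitors fell alongside (8 of 8, list median 12.33 and 10.14), as did 4 of 5 red cell genes (13.19 and 3.02). Those 4 were Slc4a1 and the embryonic globins Hbb-y, Hba-x and Hbb-bh1, and the list median was that of an embryonic globin at both ages. Alas2 did not pass (slope -0.10 ± 0.076, adjusted p = 0.306 in limma), with 9.46 at E11 and 6.94 at P0. The fall of this median is thus not a measure of red cell number. The part of these cells in any of the courses was not tested.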

How the data were processed

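Log2 expression levels per probe set, deposited by the authors, were made with GCRMA, per the submitters' processing notes, with no version stated, and their log scale was inferred from the range of values (1.16 to 15.90). RNA was amplified in 2 rounds before hybridization to Affymetrix mouse arrays, per the labels' protocols, which can weaken 5' signal. The 9 columns hold 45101 probe sets, 64 of them controls; the number of arrays limits precision.

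Probe sets with exactly 1 gene symbol (34958) and log2 5 or more on 2 arrays were kept, and the highest mean stood for a gene. Each of 10864 genes was fitted against age (P0 as day 19) with limma 3.58.1 in R 4.3.3 (trended variance, two-sided, Benjamini-Hochberg over all genes), which left 7 residual degrees of freedom. The procedure was tested on simulated data. All members are named; from each list, those with the largest slopes past the threshold, and Nr4a2, Srf and Creb1 as relatives or regulators picked after their values were seen. Listed symbols were updated through RefSeq for 4 names. Members and lists were chosen with earlier results of these data known, and the comparison of slopes between members was added after the data were seen.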

Additional observations from a re-analysis of the deposited data

How the results depend on the processing

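Under 21 alternatives (filters, scaling, choice of probe set, embryo sex, day of P0, each array left out, E13 to P0 alone, variance model, exact rank correlation), the slope calls of Fos, Fosl2, Egr1, Nr4a1 and Ier2 kept direction and side of the threshold, as did Egr3 under the 20 that held it. The highest adjusted p was 0.0291, for Ier2 from E13 to P0. The count of rising members was 4 under the stricter filter, which dropped Egr3, and 6 without a filter, which added Junb. Jun turned to -0.012 (adjusted p = 0.778) with the mean of its probe sets. Curved courses, 2 in the main fit, numbered 0 without a filter, with embryo sex as a term and from E13 to P0, 1 under the stricter filter and with values under 5 set to 5, and 0 to 1 with an array left out; with P0 at day 20 they were 2, Fosl2 and Ier2. From E13 to P0 the quadratic terms of Egr1 (-0.043) and Nr4a1 (0.016), neither called, turned sign, and 1525 genes rose and 1219 fell in all, on fewer arrays. Members above their line at E17 were 2 without a filter and with the mean of probe sets. At E18 they were 7 without a filter and 5 with the mean of probe sets. Scaling moved no array's median by more than 0.088, though centring turned the balance over all genes to 2393 that rose and 2980 that fell. No paired analysis was possible because each age has 1 array. Signals under log2 5 limit Fosb, Junb and Arc.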
